A study of Mus musculus with 6 samples.

Results

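The axon guidance ligands and receptors examined here were 68 of the 55335 genes in the count table, chosen by symbol: 8 ephrins, 14 Eph receptors, 20 semaphorins, 9 plexins, 7 Slits and Robos, and 10 netrins and netrin receptors (Dcc, Neo1 and the Unc5 genes). They were followed in RNA from retinas of wild type C57BL/6 mice aged 10 weeks, labelled as retinal ganglion cell RNA and collected with an anti-HA antibody and magnetic beads. The condition label is naive for 3 libraries and SOHU (silicone oil-induced ocular hypertension under-detected, a glaucoma model) for the other 3, whose retinas were taken 1 week after oil was put into the anterior chamber; the treatment text is the same for all 6, so the groups rest on the condition label. The protein that carried the HA tag and the cells that made it are not given, nor whether each library is a different animal, so a p-value here reflects the spread among 6 libraries that may be technical repeats.

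Guidance molecules steer growing axons by attraction or repulsion. Ephrins are membrane-bound ligands of the Eph receptor tyrosine kinases, and graded EphA and EphB receptors on ganglion cell axons set the retinal map in the brain. Semaphorins, secreted or membrane-bound, act through plexins, often with neuropilins as co-receptors. Slits repel axons through Robo receptors, and netrins act through Dcc and its relative neogenin (Neo1) as attractants and through Unc5 receptors as repellents. Many of these genes stay on in the adult retina, where they are also used by glia and vessels.

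Total counts were 21691354 to 26824919 reads per library, and the members took 0.144 to 0.15% of the reads in the naive and 0.173 to 0.184% in the SOHU libraries. Levels are CPM, reads scaled to a common library size with TMM factors, and genes are compared with each other by CPM per kilobase of exon. Fold changes compare SOHU with naive (a negative log2 value is lower in SOHU) and come from edgeR's quasi-likelihood test on the 17687 genes left by its filter on low counts; to pass, a gene needed an adjusted p (Benjamini-Hochberg) under 0.05. All 13 ganglion cell markers passed the count filter. All 12 Müller glia and astrocyte markers and all 10 rod and cone markers passed it too. Passing it is thus no check of the labelled cell type. The ganglion cell markers made up 0.392 to 0.643% of the reads in the naive and 0.188 to 0.275% in the SOHU libraries. Of these markers 12 of 13 fell, with a median log2 fold change of -1.17. The 12 markers of Müller glia and astrocytes made up 1.33 to 1.87% in naive and 2.74 to 4.93% in SOHU, and 9 of 12 rose, with a median of 1.18. Fewer cells of a type, less RNA per cell and a change in what the pull-down collected cannot be told apart in these samples.

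Of the 68 members, 63 could be tested; 13 rose and 6 fell in SOHU. That is 30.2% of the tested members, where 13.9% of all genes passed (8.02% higher and 5.93% lower). The median log2 fold change was 0.01 over the members and 0.01 over all genes, with 32 positive and 31 negative values among the members. The receptors changed in 13 of 30 tested (8 higher, 5 lower), and the ligands in 6 of 33 (5 higher, 1 lower); this difference was not tested. In 38 of the 63 the naive and SOHU libraries did not overlap (22 higher, 16 lower), beside 39.0% of all genes (19.3% higher, 19.7% lower). The calls depended on single libraries: with edgeR, 0 members and 0 genes of all passed without naive replicate 1 or without naive replicate 3, where 19 members were higher and 9 lower at an unadjusted p under 0.05 in the former and 18 and 11 in the latter. DESeq2 with all 6 libraries called 18 members higher and 11 lower. The same omissions in DESeq2, added after seeing this, gave 13 members higher and 3 lower without naive replicate 1, and 14 and 6 without naive replicate 3. Without naive replicate 2 edgeR called 11 higher and 1 lower, without SOHU replicate 2 it called 5 and 0, without SOHU replicate 1 it called 14 and 3, and without SOHU replicate 3 it called 15 and 15. The 19 members that passed all kept their direction in each of these 6 omissions, with unadjusted p-values of 2.44e-06 to 0.0212 in edgeR. Their groups do not overlap with all 6 libraries, so the kept direction followed from that and is no further support. The p-values come from the same libraries that picked these genes. Where separate groups are named for a gene below, they describe its values and add no support, whether or not it passed.

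**Figure D1:**
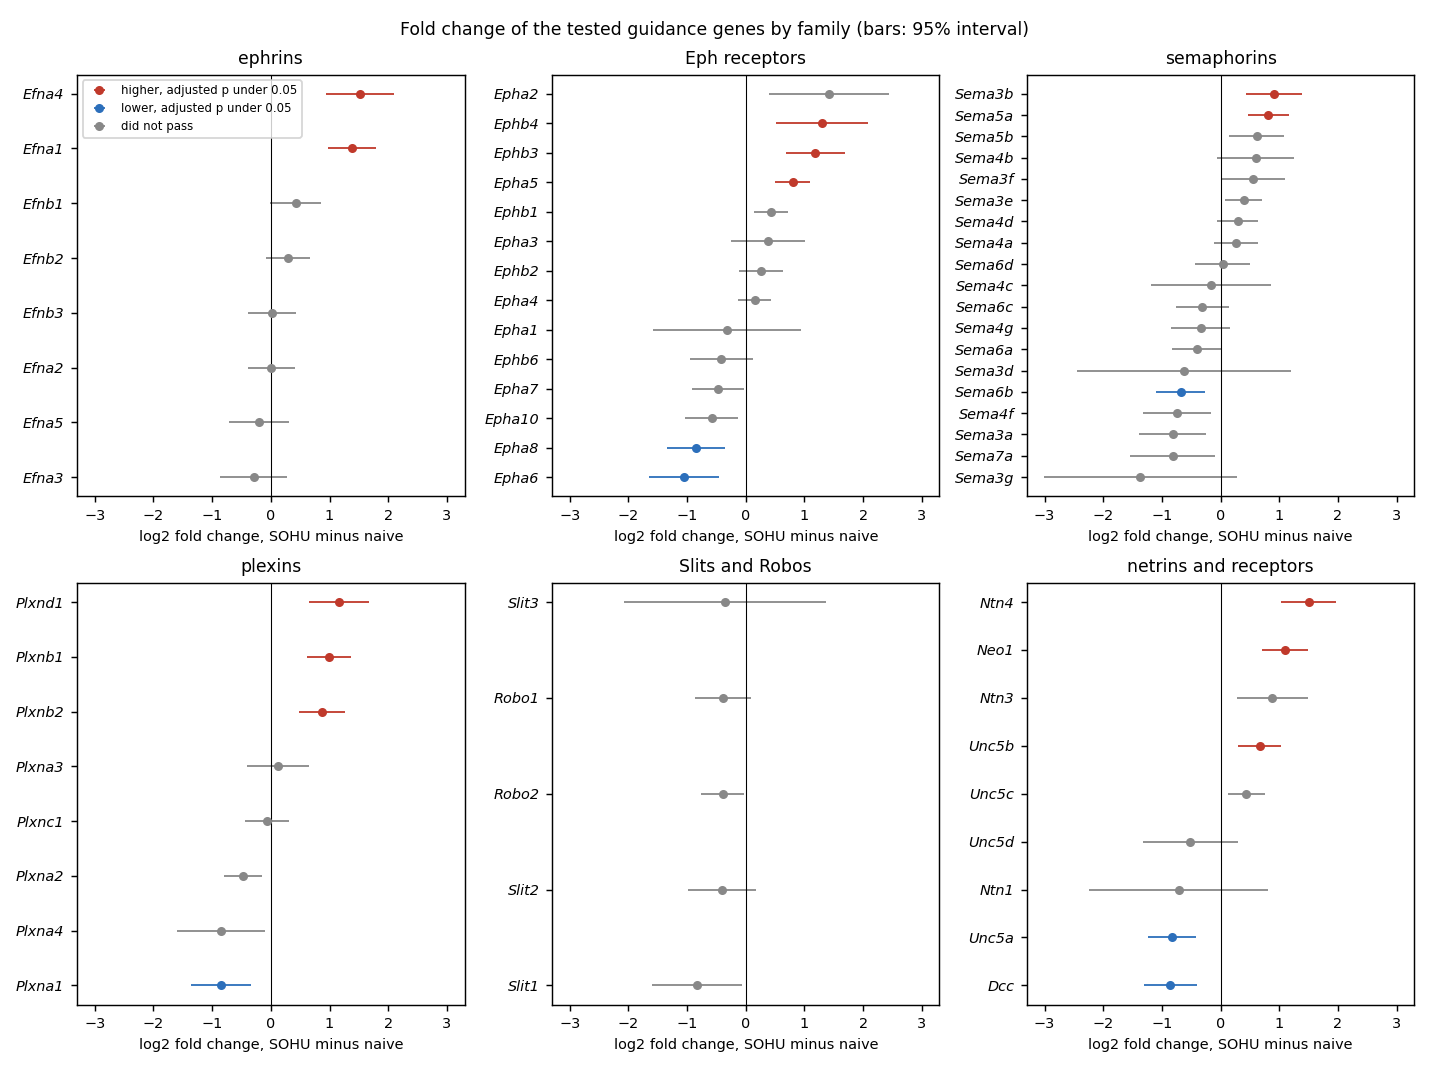
Log2 fold change (x axis, SOHU minus naive) of the 63 tested genes, one panel per family, with 95% intervals of the edgeR fit; red and blue genes passed the test. Red and blue genes stand in the same panel for the Eph receptors, semaphorins, plexins and netrin receptors, and the ephrin panel has only red ones.

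The windows before the start of 4 members are shown because these genes had the smallest p-values in each direction among members with a single RefSeq window lying wholly upstream of the gene, so that sequences of genes that rose and fell can be read side by side. They were taken from RefSeq promoter windows on GRCm38.p6, the 250 bases before the start on the gene's own strand, 5′ to 3′. Capitals mark the GC box GGGCGG on either strand, a binding motif of Sp-type factors, and touching matches run into each other. Neo1 lies at chr9:59036442-59036691 (minus strand) and Epha5 at chr5:84417383-84417632 (minus strand), both higher in SOHU. Unc5a lies at chr13:54949161-54949410 (plus strand) and Epha6 at chr16:60605532-60605781 (minus strand), both lower.
Neo1: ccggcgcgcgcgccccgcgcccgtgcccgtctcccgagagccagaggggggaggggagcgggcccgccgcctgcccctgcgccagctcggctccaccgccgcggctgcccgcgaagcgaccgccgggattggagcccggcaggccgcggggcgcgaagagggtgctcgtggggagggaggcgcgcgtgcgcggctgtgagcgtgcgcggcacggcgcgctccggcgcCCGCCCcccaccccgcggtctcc
Epha5: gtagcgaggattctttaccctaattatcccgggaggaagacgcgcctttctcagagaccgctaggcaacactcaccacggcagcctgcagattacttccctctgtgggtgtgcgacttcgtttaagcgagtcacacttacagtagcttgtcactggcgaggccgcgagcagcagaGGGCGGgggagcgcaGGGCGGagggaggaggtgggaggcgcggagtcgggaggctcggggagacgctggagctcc
Unc5a: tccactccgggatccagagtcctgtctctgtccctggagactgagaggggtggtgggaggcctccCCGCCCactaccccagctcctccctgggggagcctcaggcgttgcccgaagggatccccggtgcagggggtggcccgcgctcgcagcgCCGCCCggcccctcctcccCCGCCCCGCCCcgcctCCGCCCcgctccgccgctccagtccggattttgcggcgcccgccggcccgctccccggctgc
Epha6: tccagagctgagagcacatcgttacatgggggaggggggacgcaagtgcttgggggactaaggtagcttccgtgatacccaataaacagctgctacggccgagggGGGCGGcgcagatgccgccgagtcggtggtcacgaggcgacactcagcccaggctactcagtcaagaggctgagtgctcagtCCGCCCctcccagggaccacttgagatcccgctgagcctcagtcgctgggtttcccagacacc
GC boxes stood in the windows of both the genes that rose and those that fell, 1 in Neo1, 2 in Epha5, 5 in Unc5a and 2 in Epha6. RefSeq windows were found for 58 of the 68 members, 74 windows in all since some genes have several starts. GGGCGG was in 13 of the 14 windows of members that rose and 5 of the 5 of members that fell, in 70.3% of all member windows and in 32.7% of all 32851 windows. The motif is made of G and C only, and the median GC content was 64.4% in member windows and 52.4% in all. The TATA box TATAAA was in 2 of 74 member windows (12.4% of all windows), the AP-1 motif TGACTCA in 2 (4.46%), the STAT motif TTCNNNGAA in 2 (7.02%) and the E-box CACGTG in 4 (6.02%), counting both strands. Of these, only 1 AP-1 motif (Sema6b) and 1 E-box (Epha8) lay in a window of a gene that passed. A match describes letters in a window and is not a binding site.

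Among the ephrins, 2 of 8 rose and none fell, 25% beside 13.9% of all genes. With all 6 libraries none fell at an unadjusted p under 0.05, in DESeq2 or in limma either. DESeq2 without SOHU replicate 3 called 1 lower. The 2 that rose were ephrin-A ligands. Efna1, which encodes ephrin-A1 (ENSMUSG00000027954.9, mm10 chromosome 3, 89271733 to 89281142, minus strand), was the most abundant member of all 68 per length, at 18.1 ± 2.10 CPM per kilobase in naive and 47.3 ± 10.2 in SOHU (SD, n = 3). It had 31.4, 37.6 and 30.6 CPM in naive replicates 1 to 3 and 96.2, 98.5 and 65.1 CPM in SOHU replicates 1 to 3. Every SOHU library lay well above every naive library. Efna1 rose 2.61-fold (log2 fold change 1.38, SE 0.18, edgeR adjusted p = 0.00952). Its neighbour Efna4, for ephrin-A4 (chromosome 3, 89333390 to 89338028, minus strand), was low, with 2.85, 2.41 and 3.10 CPM in naive and 9.06, 9.06 and 5.81 in SOHU, again with no overlap. It rose 2.86-fold (1.52, SE 0.26, adjusted p = 0.0123), the largest fold change of the members that passed. Efna3 (12.9, 11.5 and 14.5 CPM in naive; 7.98, 8.88 and 14.8 in SOHU) lies between these genes on the chromosome and did not pass (-0.29, adjusted p = 0.464), and its groups overlapped.

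Ligands that pattern the visual map did not pass. Efna2 had 20.6, 19.9 and 23.5 CPM in naive and 22.9, 16.9 and 24.6 in SOHU (0.01, 95% interval -0.39 to 0.42, adjusted p = 0.97), and its sign turned with upper-quartile scaling (-0.01). Efna5 was at -0.20 (adjusted p = 0.581). The ephrin-B ligands had values of 0.42 for Efnb1, 0.29 for Efnb2 and 0.02 for Efnb3, with adjusted p-values of 0.17, 0.271 and 0.957, and none of the 3 passed (0 at an unadjusted p under 0.05). Efnb1 was the second ephrin in level per length, at 10.1 ± 1.02 CPM per kilobase in naive and 13.6 ± 3.61 in SOHU, which is within 1 SD of Efna2 in naive (10.0 ± 0.895).

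Eph receptors went both ways: 3 of 14 rose, 2 fell and 9 did not pass. The share that passed was 35.7%, beside 13.9% of all genes. Of the 5 EphB receptors 2 rose and none fell (median 0.44), and of the 9 EphA receptors 1 rose and 2 fell (median -0.33). The EphA median is the value of Epha1, a gene of few reads with a 95% interval of -1.59 to 0.93. Ephb3 had 10.5, 14 and 14.6 CPM in naive and 38.8, 27.2 and 23.1 in SOHU. It rose 2.27-fold (1.19, SE 0.22, adjusted p = 0.0151), and all SOHU libraries were above all naive ones. Ephb4, known from veins, went from 1.54, 3.82 and 3.05 to 8.81, 6.59 and 5.24 CPM, a rise of 2.46-fold (1.30, SE 0.35, adjusted p = 0.0388). It shares 33 exon bases on the opposite strand with Zan, which had 171.3% of its reads, so its value is uncertain, and with the replicate number as a block it missed the threshold (adjusted p = 0.0583). Ephb1, the receptor that sends ganglion cell axons to the same side of the brain, had 49.4, 49.3 and 55.4 CPM in naive and 73.0, 63.9 and 71.5 in SOHU. Its groups did not overlap either, but it missed the threshold (0.44, SE 0.13, adjusted p = 0.053), while DESeq2 called it (adjusted p = 0.0176).

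The EphA receptors read ephrin-A gradients along the nose to temple axis of the visual map. Epha5 rose 1.74-fold (0.80, SE 0.13, adjusted p = 0.0119), with 58.3, 61.6 and 57.1 CPM in naive and 111, 106 and 90.9 CPM in SOHU. Replicates were tight in this gene, and the groups stood far apart. Epha8 (chromosome 4, 136929419 to 136956816, minus strand) went the other way, from 53.2, 51.2 and 53.1 CPM to 30.7, 19.1 and 37.5, a 1.80-fold fall (-0.85, SE 0.22, adjusted p = 0.0345). Epha6 fell 2.08-fold (-1.06, SE 0.27, adjusted p = 0.032), from 7.58, 4.98 and 6.15 to 2.70, 2.56 and 3.74 CPM, the largest fall of the members that passed. For both, all SOHU libraries were below all naive ones. In naive, Epha8 (11.1 ± 0.236 CPM per kilobase) and Epha4 (10.2 ± 0.607) were the most abundant Eph receptors per length, and in SOHU Epha4 (11.3 ± 0.826) and Ephb1 (9.92 ± 0.694) were.

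The other Eph receptors did not pass. Epha4, a receptor for both ephrin classes, had 87.6, 78.4 and 80.2 CPM in naive and 93.1, 83.9 and 96.9 in SOHU, with overlapping groups (0.15, 95% interval -0.13 to 0.43, adjusted p = 0.442). Epha2 had a large but scattered value from a low level, 1.04, 4.30 and 2.34 CPM against 9.31, 6.32 and 4.84 (1.42, SE 0.46, adjusted p = 0.0658). Epha7 (-0.48, adjusted p = 0.133), Epha10 (-0.58, 0.0841) and Ephb6 (-0.42, 0.267), the last a receptor without kinase activity, had negative values. Epha1 (-0.33), Epha3 (0.38) and Ephb2 (0.26) had adjusted p-values of 0.733, 0.387 and 0.313. Epha1 had 12 to 42 reads per library and shares 236 exon bases on the opposite strand with Zyx, which had 10057% of its reads. The value of Epha1 is thus uncertain.

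**Figure D2:**
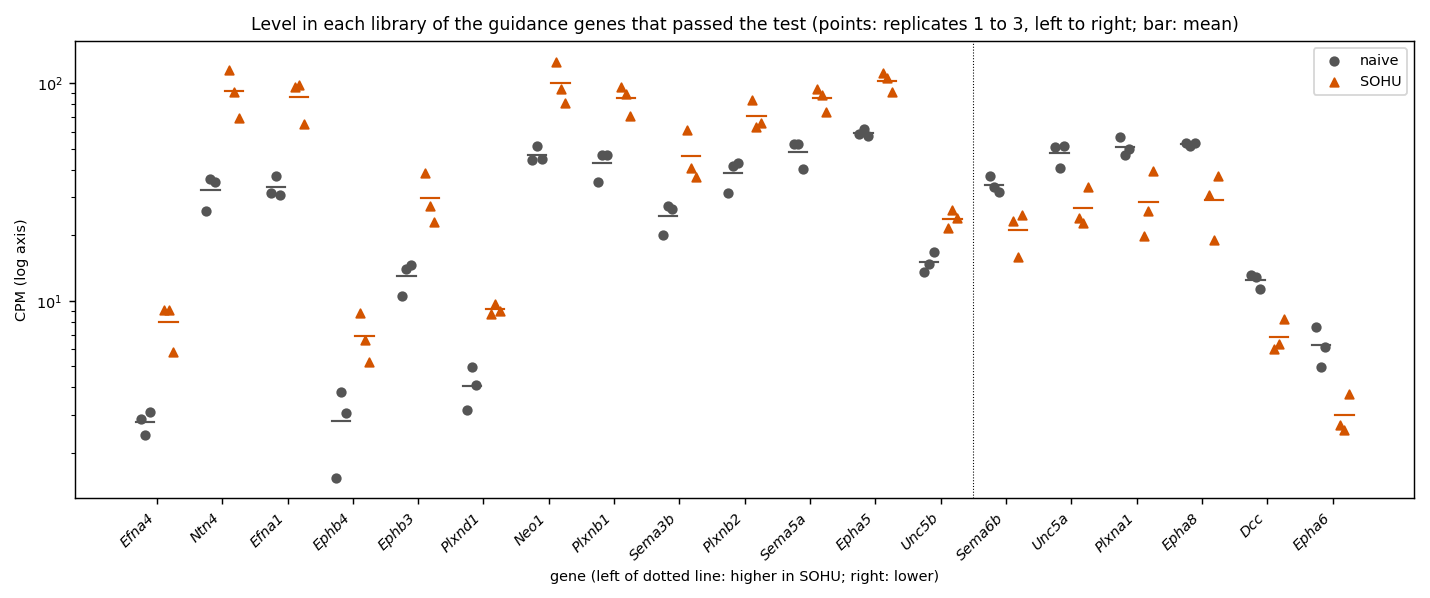
CPM (y axis, log scale) in each of the 3 naive (circles) and 3 SOHU (triangles) libraries for the 19 genes that passed, with the group means as bars, the 13 higher genes left of the dotted line and the 6 lower genes right of it. The groups do not overlap in any of the 19. These genes were picked by a test on the same libraries, so the gap is no added support. Among the lower genes SOHU replicate 3 is the nearest to naive in every one.

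Of 19 semaphorins tested, 2 rose and 1 fell, 15.8% beside 13.9% of all genes. Their median was -0.17, and its sign was not stable: it was 0.04 with a filter of at least 1 CPM in 3 libraries and 0.01 without naive replicate 2. DESeq2 with all 6 libraries called 3 higher and 3 lower. Sema3b, a secreted semaphorin that binds neuropilins, had 20.1, 27.3 and 26.4 CPM in naive and 60.7, 40.7 and 36.9 in SOHU, a rise of 1.87-fold (0.91, SE 0.21, adjusted p = 0.0257). Sema5a, a membrane-bound semaphorin that keeps neurites of the inner retina in their layer during development, went from 52.7, 52.5 and 40.5 to 94.0, 87.8 and 73.8 CPM, a rise of 1.75-fold (0.81, SE 0.16, adjusted p = 0.0158). Its partner in that role, Sema5b, had 0.61 (SE 0.21) and did not pass (adjusted p = 0.0761). Sema6b, a membrane-bound ligand of plexin-A receptors, fell 1.61-fold (-0.68, SE 0.19, adjusted p = 0.0419), from 37.5, 33.4 and 31.6 to 23.2, 15.9 and 24.8 CPM. The groups did not overlap in any of these 3 genes, nor in any other member that passed, so this is no added support.

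Per length, Sema6a and Sema6b led the semaphorins in naive (9.98 ± 0.812 and 8.61 ± 0.766 CPM per kilobase), and Sema3b and Sema6a led in SOHU (9.65 ± 2.68 and 7.52 ± 2.01, within 1 SD of each other). Sema6a had 95.3, 81.2 and 86.3 CPM in naive and 63.5, 49.7 and 84.7 in SOHU, with overlap through SOHU replicate 3 (-0.41, adjusted p = 0.176; -0.61 and 0.0273 without that library). Sema3a, the collapsing factor of sensory growth cones, was low and did not pass, at 12.5, 9.19 and 9.42 CPM against 4.24, 5.83 and 7.60 (-0.82, SE 0.26, adjusted p = 0.0611). Sema4f (-0.74, adjusted p = 0.0839) and Sema7a (-0.82, 0.116), a lipid-anchored ligand of plexin-C1, also lay lower in all SOHU libraries without passing. Sema3e (0.40, 0.0872), Sema3f (0.55, 0.15), Sema4b (0.59, 0.196), Sema4d (0.29, 0.233), Sema4a (0.26, 0.318) and Sema6d (0.04, 0.922) had positive values, and Sema4g (-0.34, 0.326), Sema6c (-0.31, 0.324) and Sema4c (-0.17, 0.838) negative ones. Sema3d (-0.63, 0.643) and Sema3g (-1.37, 0.237) were near the detection floor.

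The plexins, receptors of semaphorins, had 3 of 8 tested higher and 1 lower, 50% beside 13.9% of all genes. Plxnd1 and both plexin-B genes that could be tested rose, and Plxna1 fell as the only 1 of 4 plexin-A genes that passed (median of the 4, -0.66). The count of lower plexins depended on the tool and on 1 library: it was 3 of 8 in DESeq2 with all 6 libraries, and 3 of 8 in edgeR and in DESeq2 without SOHU replicate 3. Plxnb1, the receptor of Sema4d, went from 35.3, 46.7 and 46.8 CPM to 96.2, 89.3 and 70.4, a rise of 1.99-fold (0.99, SE 0.17, adjusted p = 0.0125). Plxnb2 rose 1.83-fold (0.87, SE 0.18, adjusted p = 0.0168), from 31.3, 41.8 and 42.9 to 84.0, 62.6 and 65.3 CPM. For both, the lowest SOHU library was above the highest naive one. Plxnd1, the receptor of Sema3e, rose 2.24-fold (1.17, SE 0.23, adjusted p = 0.016), from 3.16, 4.94 and 4.11 to 8.72, 9.69 and 8.98 CPM.

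Plxna1 (chromosome 6, 89316314 to 89362620, minus strand), which with neuropilins transduces class 3 semaphorins, fell 1.80-fold (-0.85, SE 0.23, adjusted p = 0.0399), from 56.4, 47.0 and 49.8 to 19.9, 25.9 and 39.4 CPM. It missed the threshold with total counts as the only scaling (adjusted p = 0.0616). Plxna2 (-0.47, SE 0.14, adjusted p = 0.0564) and Plxna4 (-0.84, SE 0.33, adjusted p = 0.118) lay lower in all SOHU libraries but did not pass. Plxna4 had 16.6, 16.4 and 14.6 CPM in naive and 5.23, 6.73 and 14.5 in SOHU, so SOHU replicate 3 was almost level with naive. Plxna3 (0.13, 0.755) and Plxnc1 (-0.07, 0.807) had overlapping groups. In naive Plxna1 was the most abundant plexin per length (5.64 ± 0.533 CPM per kilobase), close to Plxnb2 (5.01 ± 0.828). In SOHU Plxna1 stood at 3.14 ± 1.11, below Plxnb2 (9.15 ± 1.51) and Plxnb1 (8.89 ± 1.40), and the latter 2 did not differ beyond their spread.

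**Figure D3:**
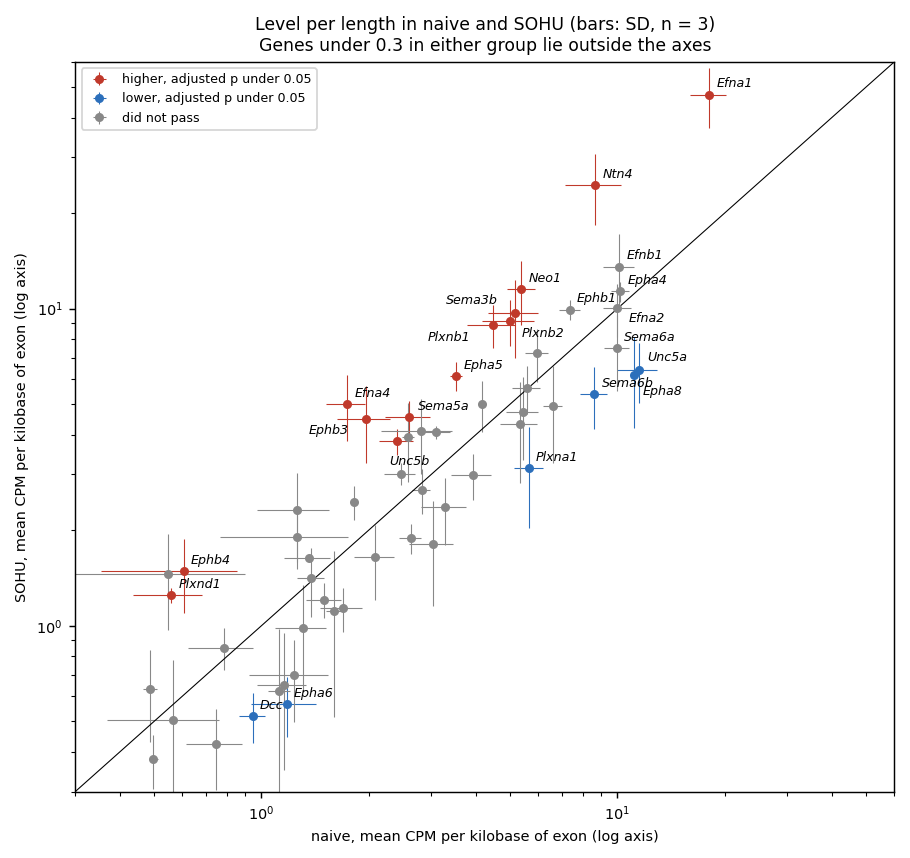
Mean CPM per kilobase of exon in SOHU (y axis) against naive (x axis), both on log scales, with SD bars (n = 3) and the line of equal levels; members with a mean under 0.3 in either group are outside the axes. Efna1 is the highest in both groups, Ntn4 moves from 8.68 to 24.5, and Unc5a and Epha8, next to Efna1 in naive, drop to 6.42 and 6.18.

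No Slit or Robo passed, in edgeR, DESeq2 or limma with all 6 libraries, although the 5 tested had negative values (median -0.39) and 2 had an unadjusted p under 0.05; with no filter on low counts, 1 of 7 was called lower. Without SOHU replicate 3, edgeR and DESeq2 each called 2 of them lower. Robo2, the main Slit receptor of ganglion cells, was the most abundant (3.92 ± 0.508 CPM per kilobase in naive), with 76.5, 60.7 and 62.6 CPM in naive and 46.2, 45.4 and 60.6 in SOHU. Its groups were separate by a small margin (-0.39, SE 0.16, adjusted p = 0.135). Slit1, one of the repellents that shape the optic chiasm, had 7.85, 5.71 and 6.94 CPM in naive and 2.04, 3.95 and 5.57 in SOHU (-0.83, SE 0.34, adjusted p = 0.132). Slit2, which acts with it, had 30.7, 39.5 and 29.4 against 15.1, 27.1 and 33.0 CPM with overlap (-0.41, adjusted p = 0.323). Robo1 (-0.39, 0.25) and Slit3 (-0.36, 0.79) completed the tested genes.

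Netrins and their receptors changed in 5 of 9 tested genes, 3 higher and 2 lower, with a median of 0.44. That is 55.6%, beside 13.9% of all genes. Ntn4, for netrin-4 of basement membranes (ENSMUSG00000020019.4, chromosome 10, 93640681 to 93747207, plus strand), had 25.9, 36.3 and 35.2 CPM in naive and 115, 91.3 and 69.0 in SOHU. It rose 2.83-fold (1.5, SE 0.21, adjusted p = 0.00952), and the lowest SOHU library was well above the highest naive one. Neo1, which binds netrins and repulsive guidance molecules (ENSMUSG00000032340.8, chromosome 9, 58874687 to 59036441, minus strand), went from 44.2, 51.6 and 44.7 to 126, 93.8 and 81.3 CPM, a rise of 2.14-fold (1.10, SE 0.18, adjusted p = 0.0117). Unc5b, a repulsive netrin receptor also used by vessels, rose 1.59-fold (0.67, SE 0.16, adjusted p = 0.0289), from 13.6, 14.7 and 16.8 to 21.6, 26.1 and 23.9 CPM. These 3 genes had separate groups, as did every other member that passed.

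Dcc and Unc5a, receptors known from neurons, fell. Dcc, needed for ganglion cell axons to leave the eye (chromosome 18, 71253634 to 72351069, minus strand), had 13.2, 12.9 and 11.3 CPM in naive and 5.98, 6.32 and 8.25 in SOHU, a fall of 1.82-fold (-0.86, SE 0.20, adjusted p = 0.0251). Unc5a (chromosome 13, 54949411 to 55006018, plus strand) fell 1.78-fold (-0.84, SE 0.18, adjusted p = 0.0213), from 51.1, 40.6 and 51.6 to 24.1, 22.8 and 33.4 CPM. All SOHU libraries were below all naive libraries in both. Unc5a was second only to Efna1 per length in naive, at 11.5 ± 1.49 CPM per kilobase, and the 13th of the 68 in SOHU at 6.42 ± 1.39. Unc5c (0.44, adjusted p = 0.0668), Unc5d (-0.52, 0.368) and Ntn3 (0.88, 0.0583) did not pass, and Ntn3 shares exon bases with the more abundant Tbc1d24 on the same strand. Ntn1, the classical netrin of the optic disc, was barely detected, with 5 to 16 reads in naive and 3 to 12 in SOHU (adjusted p = 0.511).

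The 5 members that could not be tested were Sema3c (at most 21 reads in a library), Plxnb3 (at most 6), Robo3 (at most 25), Robo4 (at most 10) and Ntn5 (at most 6). Plxnb3 had 0 reads in each naive library and 0, 4 and 6 in SOHU. Robo4, a vascular Robo, had 8, 10 and 9 reads in naive and 0, 1 and 6 in SOHU.

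Summed over each family and per length, the ephrins went from 62.2 ± 0.927 to 97.9 ± 9.04 CPM per kilobase and the netrin group from 33.6 ± 1.52 to 52.8 ± 6.53, with no overlap between the groups. The plexin sum went from 23.0 ± 0.917 to 28.5 ± 1.06, also without overlap. The Slit and Robo sum was the smallest, at 7.09 ± 0.529 in naive and 5.15 ± 1.29 in SOHU, and SOHU replicate 3 (6.55) came close to the lowest naive library (6.71). The sums of the Eph receptors (50.2 ± 0.424 and 52.4 ± 5.98) and the semaphorins (53.5 ± 1.10 and 57.0 ± 6.53) differed by less than 1 SD of SOHU. Single genes carried the larger sums: Efna1 alone went from 18.1 to 47.3 CPM per kilobase, while the median log2 fold change of the ephrins was 0.15. In the netrin group Ntn4 went from 8.68 to 24.5 and Neo1 from 5.37 to 11.5.

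Read ratios between relatives that moved in opposite directions do not depend on the scaling between libraries; the pairs were chosen after their values were seen and carry no test. Naive libraries had 3.36, 3.99 and 3.96 reads of Neo1 per read of Dcc, and SOHU libraries 21.0, 14.8 and 9.86. The ratio of Unc5b to Unc5a went from 0.266, 0.363 and 0.325 to 0.895, 1.14 and 0.715. Plxnb1 had 0.625, 0.993 and 0.940 reads per read of Plxna1 in naive and 4.85, 3.45 and 1.78 in SOHU, which turned the order of these plexins. Epha5 and Epha8 had near equal reads in naive (ratios of 1.10, 1.2 and 1.08), against 3.62, 5.56 and 2.42 in SOHU. SOHU replicate 3 lay nearest to naive in these 4 ratios. The same library was the lowest of the SOHU libraries in 10 of the 13 members that rose (82.6% of all genes that rose) and the highest in 6 of the 6 that fell (84.6% of all that fell), so this order was shared by the genes at large.

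**Figure D4:**
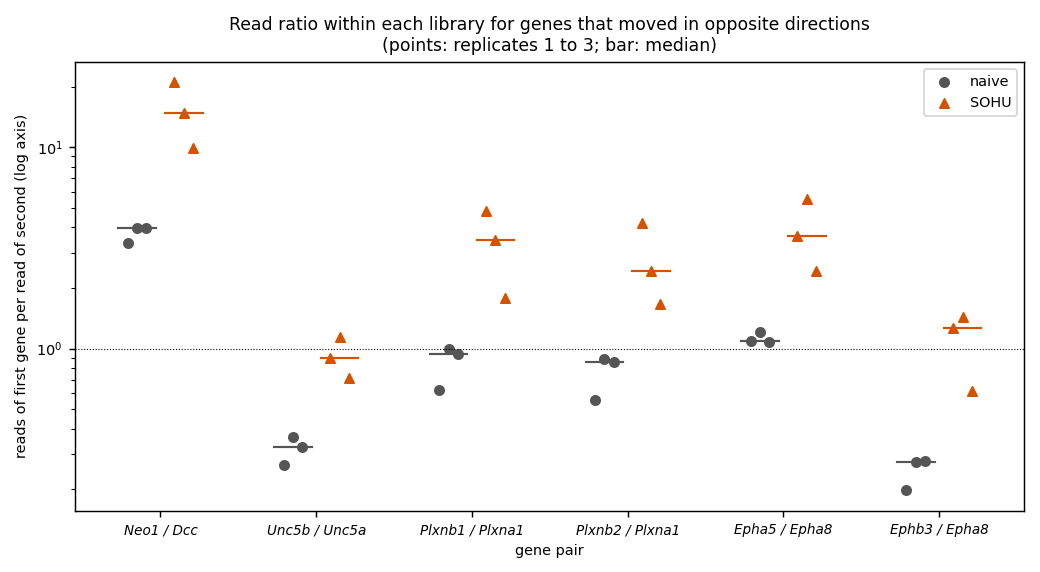
Reads of the first gene per read of the second (y axis, log scale) in each naive (circles) and SOHU (triangles) library for 6 pairs, with the group medians as bars; the dotted line marks equal reads. SOHU is above naive in every pair, and Plxnb1 passes Plxna1 (median 0.940 in naive, 3.45 in SOHU).

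Pathway genes outside the named families were read from lists chosen by function. Of 24 co-receptors and surface partners tested, 3 rose and 3 fell, with a median of -0.19. Chl1, a close homologue of L1 that helps semaphorin signalling, rose 2.90-fold, from 11.3, 14 and 10.9 to 37.2, 34.3 and 33.2 CPM (1.54, SE 0.16, adjusted p = 0.00762). Rgma, a ligand of neogenin, rose 2.26-fold (1.17, adjusted p = 0.0198), from a mean of 2.96 CPM in naive to 6.67 in SOHU. Rgmb, on the same list, was more abundant, with means of 84.1 CPM in naive and 62.4 in SOHU. It lay lower in all SOHU libraries without passing (-0.43, adjusted p = 0.0878). The proteoglycan gene Cspg5 rose 2.02-fold (adjusted p = 0.0323). L1cam (1.86-fold), Cntn2 (2.20-fold) and Dscam (2.09-fold), adhesion molecules of axons, fell, with adjusted p-values of 0.0344, 0.0339 and 0.0179. The neuropilin genes Nrp1 (0.37, adjusted p = 0.22) and Nrp2 (-0.64, 0.0601), co-receptors of class 3 semaphorins, did not pass.

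Of 47 intracellular effectors, 9 fell and 2 rose, with a median of -0.18. Crmp1, a relay of semaphorin signals, fell 1.82-fold (223, 209 and 213 CPM in naive; 117, 91.7 and 146 in SOHU; adjusted p = 0.016). The kinase gene Pak1 fell 1.78-fold (adjusted p = 0.0189), Chn1, for a chimaerin that acts after EphA4, fell 1.77-fold (0.023), and Mical2, of a family that oxidises actin, fell 2.13-fold (0.0251). Rras rose 2.53-fold (adjusted p = 0.00995) and Rock1, for a kinase that contracts growth cones, 1.65-fold (0.0266). In both lists the share that passed, 25% and 23.4%, was above the 13.9% of all genes. That difference was not tested, and the lists were chosen with earlier results of these data known.

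The marker lists of the cell types moved in different directions, and some did not move. None of the 6 members that fell was as low as the ganglion cell marker median of -1.17, and their values ran from -1.06 to -0.68. The ganglion cell markers themselves ran from -1.44 to -0.76, and of the members that fell only Sema6b (-0.68) lay outside that range. Amacrine and horizontal cell markers also fell in 4 of 10, with a median of -0.73. They ran from -1.08 to -0.59, a range that held all 6 members that fell, Sema6b included. These markers made up 0.195 to 0.219% of reads in naive and 0.103 to 0.152% in SOHU. The members that rose had values of 0.67 to 1.52, beside the glial median of 1.18. Endothelial and pericyte markers summed to 0.0357 to 0.0421% in naive and 0.0782 to 0.101% in SOHU, and most of the reads were of Kdr (7204 of naive replicate 1) and Flt1 (1585). Of 7 tested, Kdr, Flt1 and Pdgfrb rose. The list did not move as a whole: Esam was lower in all SOHU libraries without passing (-0.71, adjusted p = 0.0589), and Tek was at -0.21 (adjusted p = 0.8). Cdh5, which defines endothelium, had 0 to 2 reads in any library, Tie1 had 0 in SOHU replicate 1, and neither could be tested. Of 9 microglia and macrophage markers 4 rose, on sums of 0.000656 to 0.00279% in naive and 0.00422 to 0.0113% in SOHU. Rod and cone markers passed in 0 of 10 (1 at an unadjusted p under 0.05), with sums of 0.402 to 0.489% and 0.35 to 0.596%. Of 8 bipolar cell markers 1 rose (median -0.50), and of 3 pigment epithelium markers tested none passed in edgeR (median -0.15). The part of these cell types in the members' changes was not tested.

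**Figure D5:**
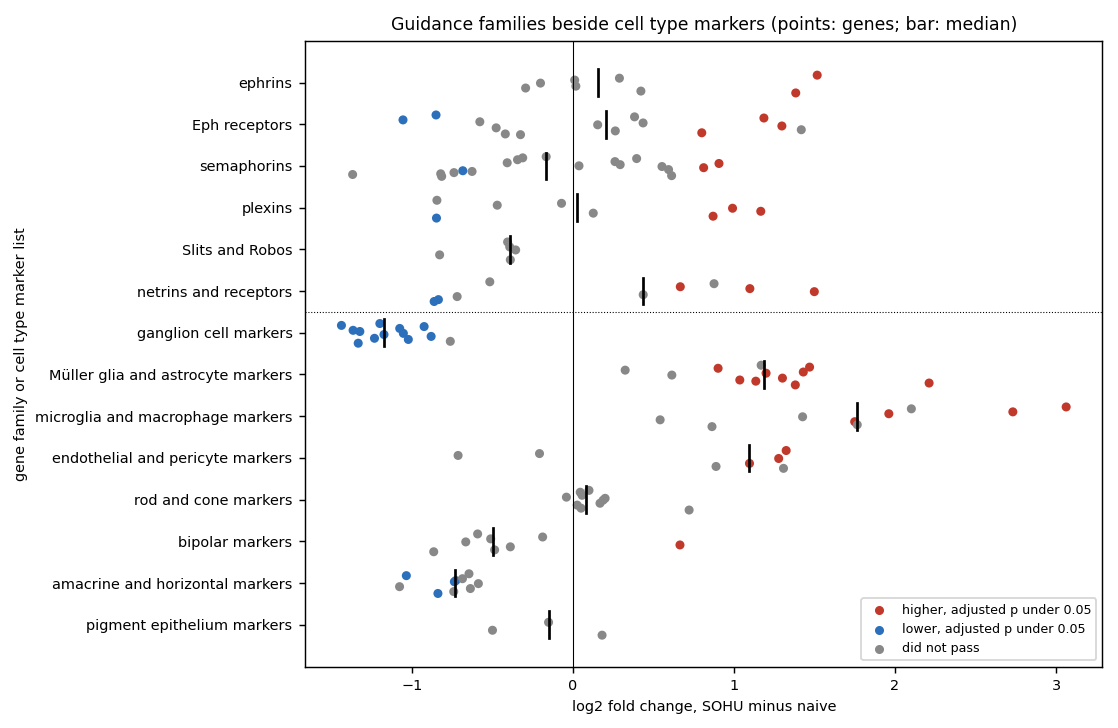
Log2 fold change (x axis, SOHU minus naive) of each tested gene, by guidance family (above the dotted line) and by cell type marker list (below), with the median of each as a bar. Slits and Robos lie below 0 and the other guidance families have genes on both sides of it; the bars of the ganglion cell and glial markers stand at -1.17 and 1.18, with 1 guidance gene below the former and 6 above the latter.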

How the data were processed

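RNA was measured in 3 naive and 3 SOHU libraries, grouped by their condition label. The deposited values are raw counts, 1 per gene and library; the 6 single-library files equal the series table, which was used. The submitters' processing notes name mm10 with bcl2fastq 2.17, Trim Galore, MultiQC, featureCounts and both HISAT and HISAT2. Annotation, settings and strand use were not found there, so reads in overlapping exons are of uncertain origin. Exon lengths are the deposited ones. GENCODE annotation gave symbols to 55154 of 55335 genes by Ensembl identifier (54587 of the same version).

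Total counts per library are in the report. A count filter (filterByExpr by group) kept 17687 genes with at least 99.8% of each library's reads. TMM factors were 0.943 to 1.04. The test was edgeR 4.0.16 (R 4.3.3), quasi-likelihood with a robust fit and no covariate, adjusted over the 17687 genes. The common biological coefficient of variation was 22.3%. Replicates differed by a chi-square per degree of freedom of 12.6 to 79.0, so none is a copy of another.

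Members described in full are those that passed, the 3 most abundant per length in each family, and the smallest p-values up to 20 members; the rest are named to account for each. From each partner list, at most 6 genes that passed are named, by smallest p. The neuropilins and Rgmb were added after their values were seen. Members and lists were chosen with earlier results of these data known. Alternatives were 2 other scalings, 2 other filters, DESeq2 1.42.0, limma 3.58.1 (voom), a replicate block and leaving out each library.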

Additional observations from a re-analysis of the deposited data

How the results depend on the processing

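With all 6 libraries, the 19 members that passed also passed under upper-quartile scaling, both other filters, DESeq2 and limma; 18 did with total counts only (Plxna1 lost) and 18 with the replicate block (Ephb4 lost). Correlations of same-numbered deviations were 0.16, 0.25 and 0.00399, and those of differently numbered ones ran from -0.28 to 0.095. Whether the replicate numbers pair the libraries was thus not settled. The block called 13 members higher and 6 lower. Members lower numbered 10 with no filter and 11 with DESeq2 (all genes lower 1675 and 1751), and the netrin median was 0.52 with no filter and 0.56 with at least 1 CPM in 3 libraries. Leaving out each library in turn, edgeR called 0 to 2051 genes higher and 0 to 1845 lower, 0 to 15 members higher and 0 to 15 lower, with a Slit and Robo median of -0.64 to -0.24. The cause of the 0 calls was not tested. The same omissions in DESeq2, added after seeing the data, gave 1103 to 2362 genes higher, 669 to 2360 lower (1703 without SOHU replicate 1), 13 to 17 members higher and 3 to 17 lower; its netrin median was 0.34 without SOHU replicate 2 and its Slit and Robo median -0.65 without SOHU replicate 3. None of the 19 reversed, which their separate groups with all 6 libraries largely fixed in advance. Efna2, near 0, turned to -0.010 with upper-quartile scaling, -0.019 with no filter, -0.0034 with the block, and -0.083 to 0.17 over the omissions in edgeR; in DESeq2 it was -0.017 and -0.042 when naive replicates 1 and 2 were omitted in turn, and -0.040 and -0.095 when SOHU replicates 1 and 3 were. Depth limits Ntn1, Slit3, Sema3d, Sema3g and Epha1, which had few reads.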
